A study of Danio rerio with 246 samples.

Results

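The annexin and S100 families were described across 246 single cells sorted from zebrafish that the series title calls adult. They came from the kidney marrow, the organ in which blood forms in this fish. The members are the genes of the deposited count table whose zebrafish symbol begins with anxa or s100, in capitals or lower case. There are 21 of them among 21876 genes, namely 12 annexins and 9 S100 genes. The table of gene symbols used here names 29 such genes, and the other 8, among them anxa2b, s100a11, s100t and anxa1b to anxa1d, were not analysed here. All 21 members have at least 1 read, and 13 reached 10 CPM, reads scaled to a total of 1000000, in the summed reads of at least 1 line.

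Annexins are soluble proteins that attach to acidic phospholipids of membranes when cytosolic calcium rises, and they take part in membrane repair, vesicle traffic and the handling of dying cells. S100 proteins are small calcium sensors with EF-hand motifs that act by binding target proteins, several annexins among them. In mammals both families are abundant in myeloid white cells, and S100A10 forms a complex with annexin A2 at the plasma membrane.

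Each cell was sorted from 1 of 6 fluorescent transgenic lines, amplified by a modified Smart-seq2 protocol, which reads whole polyadenylated transcripts, and sequenced as its own library. The lines, spelled as in the sample titles, are Runx123_GFP (39 cells, plate 1), cd41_GFPlow (43 cells, plate 3), mpx_EGFP (47 cells, plate 4), rag2_GFP (48 cells, plate 2), lck_GFP (38 cells, plate 2) and lck_GFP_rag1 (31 cells, plate 5). All cells carry the label kidney marrow, and the sample labels give no age, treatment or number of fish, nor what the suffixes low and rag1 stand for. With no animals named, each line counts as 1 sample, so there are no p-values and every interval covers counting error only.

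Marker genes were set against the line names. Neutrophil markers summed to 56554 CPM in mpx_EGFP, B cell markers to 6941 CPM in rag2_GFP and T cell markers to 7169 CPM in lck_GFP. In lck_GFP_rag1 the natural killer and cytotoxic list led with 7684 CPM, against 667 CPM for the T cell list. In Runx123_GFP erythroid markers summed to 6074 CPM, with 18 of 39 cells at 2 or more of them. Stem and progenitor markers summed to 1950 CPM there, with 30 of 39 cells at 2 or more. Thrombocyte markers summed to 5343 CPM in Runx123_GFP (19 of 39 cells) and only 229 CPM in cd41_GFPlow, the line named for the thrombocyte integrin cd41. That line instead held 2282 CPM of monocyte and macrophage markers, with 18 of 43 cells at 2 or more of the 15 genes of that list, and 6496 CPM of neutrophil markers. The 15 genes come from 8 list entries, as 6 of them share the symbol MFAP4 and 3 the symbol MPEG1. Of the 8 entries of the neutrophil list 5 were matched, and mpx was not among them. The neutrophil list also summed to 1900 CPM in rag2_GFP, with 1 of its genes at 10 CPM or more in the line. In Runx123_GFP, lck_GFP and lck_GFP_rag1 it summed to 17.4, 85.6 and 6.24 CPM. The macrophage list summed to 1332 CPM in rag2_GFP (8 of 48 cells at 2 or more) and 994 CPM in mpx_EGFP (0 of 47). It summed to 960 CPM in lck_GFP_rag1 (3 of 31), 115 CPM in Runx123_GFP and 0.0868 CPM in lck_GFP. In rag2_GFP marco, csf1ra and the C1q genes had no read. Summed reads per line ran from 23028484 to 47836984. Median detected genes per cell ran from 782 in rag2_GFP to 2804 in cd41_GFPlow, and apart from rag2_GFP and lck_GFP each line has a plate of its own, so line and plate cannot be told apart.

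Members were most numerous in the cells of cd41_GFPlow and mpx_EGFP. Counting a gene as present in a cell at 10 CPM or more, the median cell held 4 members in cd41_GFPlow, 3 in mpx_EGFP, 1 in Runx123_GFP, 1 in lck_GFP_rag1 and 0 in both rag2_GFP and lck_GFP. The highest cell held 9, 6, 5, 7, 2 and 4 members in the same order of lines. Cells with no member made up 60.4% of rag2_GFP (29 of 48, 95% exact binomial interval 45.3 to 74.2) and 60.5% of lck_GFP (23 of 38, 43.4 to 76.0), but 4.26% of mpx_EGFP (2 of 47, 0.520 to 14.5). Lymphoid cells also had fewer detected genes in all. With each cell thinned to 200000 reads, which left out 17 of the 246 cells, the 6 medians were the same, and 58.5% of rag2_GFP cells and 62.5% of lck_GFP cells still held no member. Thinning evens reads and not detected genes. Within lines Spearman's rho between members and detected genes ran from 0.0818 in cd41_GFPlow to 0.476 in Runx123_GFP. The part of detected genes in the differences between lines was not tested.

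**Figure D1:**
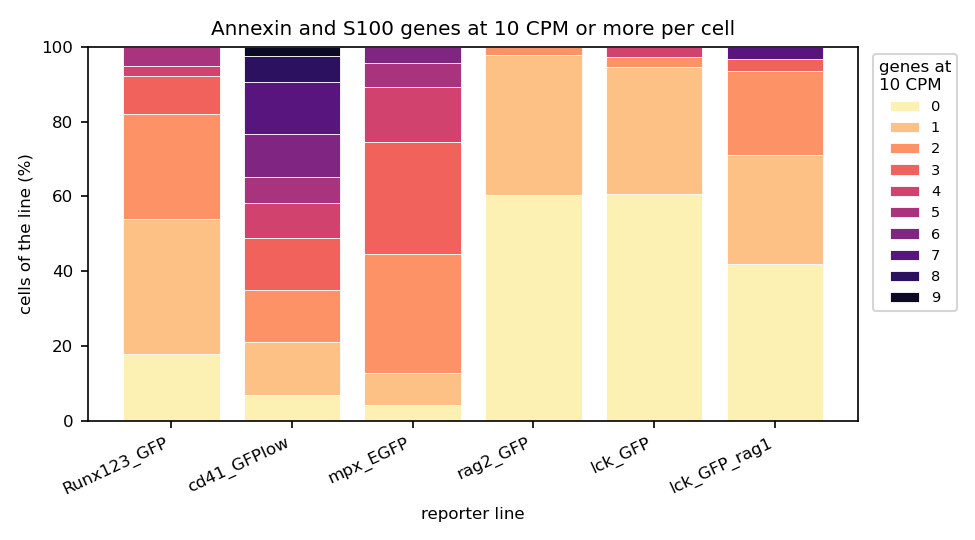
Share of the cells of each reporter line (%, vertical axis) by the number of annexin and S100 genes at 10 CPM or more in the cell (colour, darker for more genes). The 29 of 48 rag2_GFP cells and 23 of 38 lck_GFP cells with no member contrast with 3 of 43 cells in cd41_GFPlow and 2 of 47 in mpx_EGFP.

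Reads of the 9 S100 genes that met the symbol rule were concentrated in 1 line and the annexin reads were not. For S100 this mostly describes 1 gene, as s100a10b held 96.6% of the S100 reads of cd41_GFPlow and 97.2% of those of lck_GFP_rag1. In mpx_EGFP S100Z led with 69.0%. The S100 relative icn, outside the symbol rule and not in these sums, was spread more widely. It stood at 678 CPM in mpx_EGFP, 633 CPM in cd41_GFPlow and 607 CPM in lck_GFP_rag1. Reads of the 9 S100 genes summed to 1288 CPM in cd41_GFPlow, 94.2 CPM in lck_GFP_rag1, 33.5 CPM in mpx_EGFP, 7.56 CPM in Runx123_GFP, 1.39 CPM in lck_GFP and 0.0631 CPM, or 2 reads, in rag2_GFP. Reads of the 12 annexins summed to 2488 CPM in cd41_GFPlow, 1655 CPM in mpx_EGFP, 1128 CPM in lck_GFP_rag1, 844 CPM in Runx123_GFP, 530.1 CPM in rag2_GFP and 409 CPM in lck_GFP. The highest and lowest annexin sums thus lay within an order of magnitude, and a single cell held 97.2% of the S100 reads of lck_GFP_rag1.

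A member was called higher or lower in a line at a 4-fold difference in CPM from the unweighted mean of the other 5 lines, with 1 CPM added to both. A gene high in a single line can pass the minimum of 10 CPM through that line alone, so these counts describe the 13 genes and do not support a difference of the families. In cd41_GFPlow 6 of the 13 were higher (s100a10b, s100w, s100v2, ANXA1, ANXA2 and anxa5b), where 6.43% of all 12660 genes measured were, and 1 was lower, where 20.9% were. In mpx_EGFP 1 was higher, against 6.03% of all genes, and 4 were lower, against 39.2%. In Runx123_GFP 1 was higher and 7 were lower, where 11.3% and 25.3% of all genes were.

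Lower calls were most numerous in rag2_GFP and lck_GFP, lines in which the share of all genes called lower was also high. A gene high in 1 line raises the mean that the other lines are set against, so lower calls partly mirror higher ones. For example, anxa13l, higher in Runx123_GFP, was called lower in every other line. The 7 lower calls of Runx123_GFP stood against a smaller share, 25.3%. In rag2_GFP none of the 13 was higher and 9 were lower, where 15.9% and 39.2% of all genes were. In lck_GFP 1 was higher and 9 were lower, against 8.64% and 47.2%. In lck_GFP_rag1 1 was higher and 4 were lower, against 8.59% and 49.7%. The 4 of 13 members lower in lck_GFP_rag1 are a smaller share than the background of that line. The median log2 ratio of the 13 members was 0.84 in cd41_GFPlow, where the median of all genes was -0.33, and -2.59 in rag2_GFP, where it was -0.87. In Runx123_GFP the medians of members and of all genes were -2.50 and -0.22, and in lck_GFP -2.75 and -1.82. In mpx_EGFP they were -0.85 and -1.34, and in lck_GFP_rag1 -1.44 and -1.98.

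**Figure D2:**
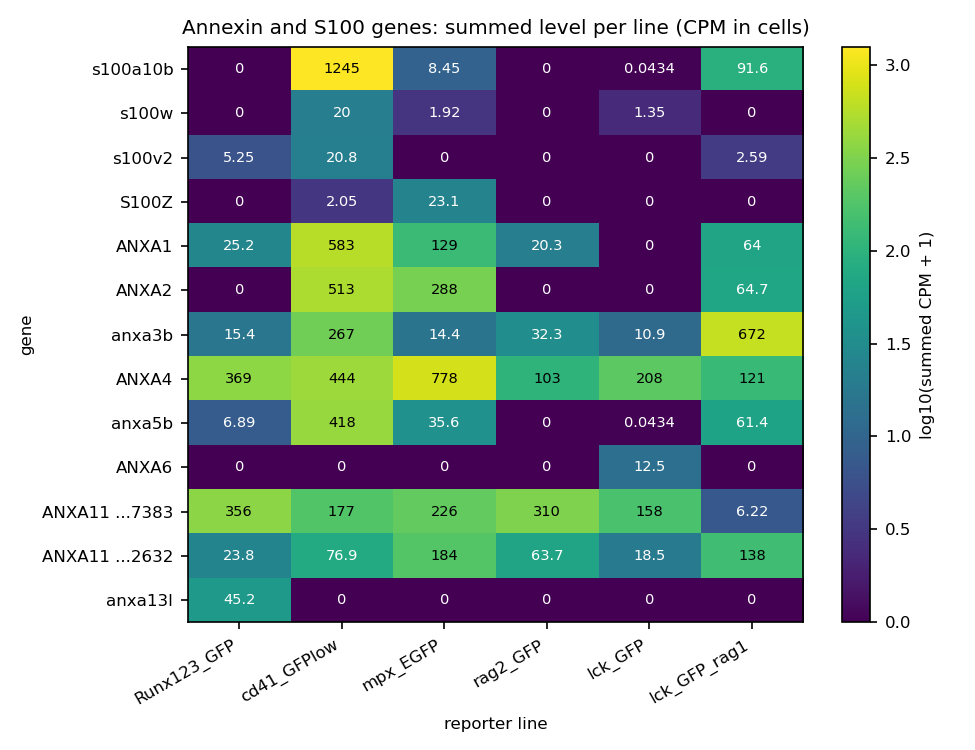
Summed level of the 13 members that reached 10 CPM in at least 1 line (rows) in the 6 reporter lines (columns), with the CPM printed in each field and colour on a log10(CPM + 1) scale. The upper S100 genes and ANXA1, ANXA2 and anxa5b are highest in cd41_GFPlow, anxa3b in lck_GFP_rag1, ANXA4 and S100Z in mpx_EGFP, and anxa13l appears in Runx123_GFP alone.

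Among the S100 genes, s100a10b (ENSDARG00000025254) encodes a counterpart of mammalian S100A10, the annexin A2 partner that holds its active shape without calcium. Its level was 1245 CPM in cd41_GFPlow, 91.6 CPM in lck_GFP_rag1, 8.45 CPM in mpx_EGFP, 0.0434 CPM (1 read) in lck_GFP and 0 in Runx123_GFP and rag2_GFP. The level in cd41_GFPlow was 13.6-fold that in lck_GFP_rag1 (95% exact interval of the counts 13.16 to 14.04). That fold rests on 1 lck_GFP_rag1 cell with 99.97% of the line's s100a10b reads. Without its reads of the gene the line stood at 0.0234 CPM, and the next line was mpx_EGFP, over which cd41_GFPlow was 147-fold higher (128 to 170.05). It was present in 22 of 43 cd41_GFPlow cells (51.2%, 35.5 to 66.7), with a highest cell of 5573 CPM, and in 4 cells of mpx_EGFP and 1 of lck_GFP_rag1. The gene divided the cd41_GFPlow cells, and the other 21 had under 10 CPM.

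The less abundant S100 genes were found in few cells. The S100Z gene (ENSDARG00000038729), described in full after its values were seen, stood at 23.1 CPM in mpx_EGFP (21.2 to 25.1), 2.05 CPM in cd41_GFPlow and 0 in the other 4 lines. It was present in 10 of 47 mpx_EGFP cells and in 1 cell of cd41_GFPlow, and its level in mpx_EGFP was 11.3-fold that in cd41_GFPlow (9.09 to 14.1). It was the only S100 member whose highest line was mpx_EGFP. The neighbouring gene of s100a10b in the RefSeq annotation of assembly GRCz12tu, s100w (ENSDARG00000101181, also chosen after its values were seen), reached 19.96 CPM in cd41_GFPlow, 1.92 CPM in mpx_EGFP and 1.35 CPM in lck_GFP, in 4, 1 and 1 cells. For s100v2, 72.2% of the 20.8 CPM in cd41_GFPlow came from 1 cell. The other 5 S100 genes, S100A1, S100B, s100a10a, s100s and s100u, stayed at or under 2.32 CPM in every line.

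ANXA2 (ENSDARG00000003216) is the partner of S100A10 in mammals and binds actin and membranes. Its level was 513 CPM in cd41_GFPlow (507 to 520), 288 CPM in mpx_EGFP (281 to 295), 64.7 CPM in lck_GFP_rag1 and 0 in Runx123_GFP, rag2_GFP and lck_GFP. The 3 lines without a read had floors of 0.0837, 0.0946 and 0.130 CPM, the level that 3 reads would give. ANXA2 was present in 19 of 43 cd41_GFPlow cells (44.2%, 29.1 to 60.1) and 13 of 47 mpx_EGFP cells (27.7%, 15.6 to 42.6), shares whose intervals overlap, although the summed level was 1.78-fold higher in cd41_GFPlow (1.74 to 1.83).

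ANXA1 (ENSDARG00000026726) encodes an annexin that in mammals is released by neutrophils and macrophages and dampens inflammation through formyl peptide receptors. It was measured at 583 CPM in cd41_GFPlow, 129 CPM in mpx_EGFP, 64.0 CPM in lck_GFP_rag1, 25.2 CPM in Runx123_GFP, 20.3 CPM in rag2_GFP and 0 in lck_GFP. The share of cells differed less than the level, at 14 of 43 cells in cd41_GFPlow (32.6%, 19.1 to 48.5) and 12 of 47 in mpx_EGFP (25.5%, 13.9 to 40.3). Among cells at 10 CPM or more the median was 744 CPM in cd41_GFPlow and 528 CPM in mpx_EGFP, and the highest cd41_GFPlow cell stood at 6603 CPM. Another cd41_GFPlow cell, at 5284 CPM, held 25.5% of that line's ANXA1 reads, and without it the line's level was 434 CPM. The rag2_GFP level came from 1 cell, and 1 of the 2 Runx123_GFP cells held 58.4% of that line's reads. The table holds no count for the tandem copies anxa1b to anxa1d, and how reads of close copies were assigned was not tested.

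anxa5b (ENSDARG00000016470) encodes an annexin A5, which binds phosphatidylserine, the lipid that dying cells expose. Its level was 418 CPM in cd41_GFPlow, 61.4 CPM in lck_GFP_rag1, 35.6 CPM in mpx_EGFP, 6.89 CPM in Runx123_GFP, 0.0434 CPM (1 read) in lck_GFP and 0 in rag2_GFP. It was present in 13 of 43 cd41_GFPlow cells (30.2%, 17.2 to 46.1) and in 3 of 47 mpx_EGFP cells (6.38%, 1.34 to 17.5). The level in cd41_GFPlow was 6.80-fold that of lck_GFP_rag1 (6.53 to 7.09), where 1 cell held every anxa5b read. Over mpx_EGFP, the next line without that cell, it was 11.7-fold (10.9 to 12.6). Its paralogue anxa5a reached 6.29 CPM in cd41_GFPlow, from 1 cell at 10 CPM or more.

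anxa3b (ENSDARG00000044254), a relative of annexin A3, which is abundant in mammalian neutrophils, was rare in the neutrophil line mpx_EGFP. It stood at 672 CPM in lck_GFP_rag1, 267 CPM in cd41_GFPlow, 32.3 CPM in rag2_GFP, 15.4 CPM in Runx123_GFP, 14.4 CPM in mpx_EGFP and 10.9 CPM in lck_GFP. The gene was present in 9 of 31 lck_GFP_rag1 cells (29.03%, 14.2 to 48.04), 13 of 43 cd41_GFPlow cells (30.2%, 17.2 to 46.1) and 2 of 47 mpx_EGFP cells (4.26%, 0.520 to 14.5). Of the 9 lck_GFP_rag1 cells 7 carried at least 2 natural killer and cytotoxic markers, as did 17 of the 22 cells without anxa3b. At least 2 monocyte and macrophage markers were found in 3 of the 9 cells and 0 of the 22. That list summed to 0 to 11452 CPM in the 9 cells and 0 to 3176 CPM in the 22, where 12 of its 15 genes had no read, marco and the 3 C1q genes among them. Its part in the anxa3b level was not tested. Similar shares of cells in lck_GFP_rag1 and cd41_GFPlow thus went with a 2.52-fold higher summed level in the former (2.47 to 2.57). The cell with the most anxa3b reads held 36.4% of them in lck_GFP_rag1 and 34.1% in cd41_GFPlow, and the levels without it were 428 and 176 CPM. In Runx123_GFP, rag2_GFP and lck_GFP at least 99.6% of the reads came from 1 cell each, and in mpx_EGFP 82.0%.

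ANXA4 (ENSDARG00000036456), a membrane-binding annexin best known from epithelia and secretory cells, was the most widespread member, with reads in 115 of the 246 cells. Its level was 778 CPM in mpx_EGFP (767 to 789), 444 CPM in cd41_GFPlow, 369 CPM in Runx123_GFP, 208 CPM in lck_GFP, 121 CPM in lck_GFP_rag1 and 103 CPM in rag2_GFP. It was present in 41 of 47 mpx_EGFP cells (87.2%, 74.3 to 95.2), 35 of 43 cd41_GFPlow cells (81.4%, 66.6 to 91.6) and 19 of 39 Runx123_GFP cells (48.7%, 32.4 to 65.2). In the lymphoid lines it was present in 4 of 48, 4 of 38 and 7 of 31 cells of rag2_GFP, lck_GFP and lck_GFP_rag1. The lymphoid lines thus had smaller shares of cells with the gene than mpx_EGFP and cd41_GFPlow. Between mpx_EGFP and cd41_GFPlow the intervals of the shares overlapped, while the summed level was 1.75-fold higher in mpx_EGFP (1.72 to 1.79). Single lymphoid cells reached 2236 to 4228 CPM, above the highest mpx_EGFP cell at 1984 CPM. Without the cell with the most ANXA4 reads, the levels were 66.1 CPM in lck_GFP, 18.01 CPM in rag2_GFP and 79.8 CPM in lck_GFP_rag1. In Runx123_GFP the cells with ANXA4 had a median of 1252370 reads and those without 596975, and the part of depth in that share was not tested beyond thinning, which left 18 of 36 cells.

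The table holds 2 genes with the symbol ANXA11, an annexin that in mammals tethers RNA granules to lysosomes, and they differed in where they were found. ENSDARG00000077383 was measured at 356 CPM in Runx123_GFP, 310.3 CPM in rag2_GFP, 226 CPM in mpx_EGFP, 177 CPM in cd41_GFPlow, 158 CPM in lck_GFP and 6.22 CPM in lck_GFP_rag1. ENSDARG00000002632 was measured at 184 CPM in mpx_EGFP, 138 CPM in lck_GFP_rag1, 76.9 CPM in cd41_GFPlow, 63.7 CPM in rag2_GFP, 23.8 CPM in Runx123_GFP and 18.5 CPM in lck_GFP. Without the cell with the most reads, the first copy fell to 45.9 CPM in lck_GFP and 0.795 CPM in lck_GFP_rag1, and the second to 10.7 and 85.5 CPM in the same lines. The order of Runx123_GFP and lck_GFP_rag1 was opposite for the 2 copies. The first was present in 22 of 39 Runx123_GFP cells and 2 of 31 lck_GFP_rag1 cells, and the second in 6 and 9 of them, while 32 of 47 mpx_EGFP cells held the second. In Runx123_GFP 14 of the 22 cells with the first copy and 4 of the 17 without it had at least 2 erythroid markers. For thrombocyte markers the counts were 8 of 22 and 11 of 17, and for kidney tubule markers 5 of 22 and 0 of 17, with the tubule genes CDH17 and PAX2 at 0 in both. The summed erythroid list ran from 0 to 50546 CPM and from 0 to 10556 CPM, the thrombocyte list from 0 to 58105 CPM and from 0 to 53687 CPM, and the kidney tubule list from 0 to 1215 CPM and from 0 to 1323 CPM. Those 22 cells also had more detected genes, with a median of 2662.5 against 1811, and the part of depth or of these markers in the presence of the gene was not tested.

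anxa13l (ENSDARG00000013613), an annexin A13-like gene whose relatives are known from intestinal and kidney epithelium, was found in 1 line, and was chosen for a full account after its values were seen. Its level was 45.2 CPM in Runx123_GFP (43.03 to 47.5), from 7 of 39 cells, and no read was found in the other 5 lines. That is at least 721-fold higher than in cd41_GFPlow, taking 3 reads in that line as the floor. Of the 7 cells 6 had at least 2 erythroid markers, against 12 of the 32 other Runx123_GFP cells, and 3 had at least 2 thrombocyte markers, against 16 of 32. The erythroid list summed to 134 to 50546 CPM in the 7 cells and to 0 to 33225 CPM in the other 32, with none of its 6 genes at 0 in either, and its part in the level of anxa13l was not tested. At least 2 kidney tubule markers were found in 3 of the 7 cells and 2 of the 32, with sums of 0 to 1215 CPM and 0 to 1323 CPM. The tubule genes CDH17 and PAX2 had no read in any Runx123_GFP cell. The remaining annexins were rare. ANXA6 came from a single lck_GFP cell, which gave the line 12.5 CPM, and anxa13 and anxa14 stayed at or under 3.64 CPM.

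**Figure D3:**
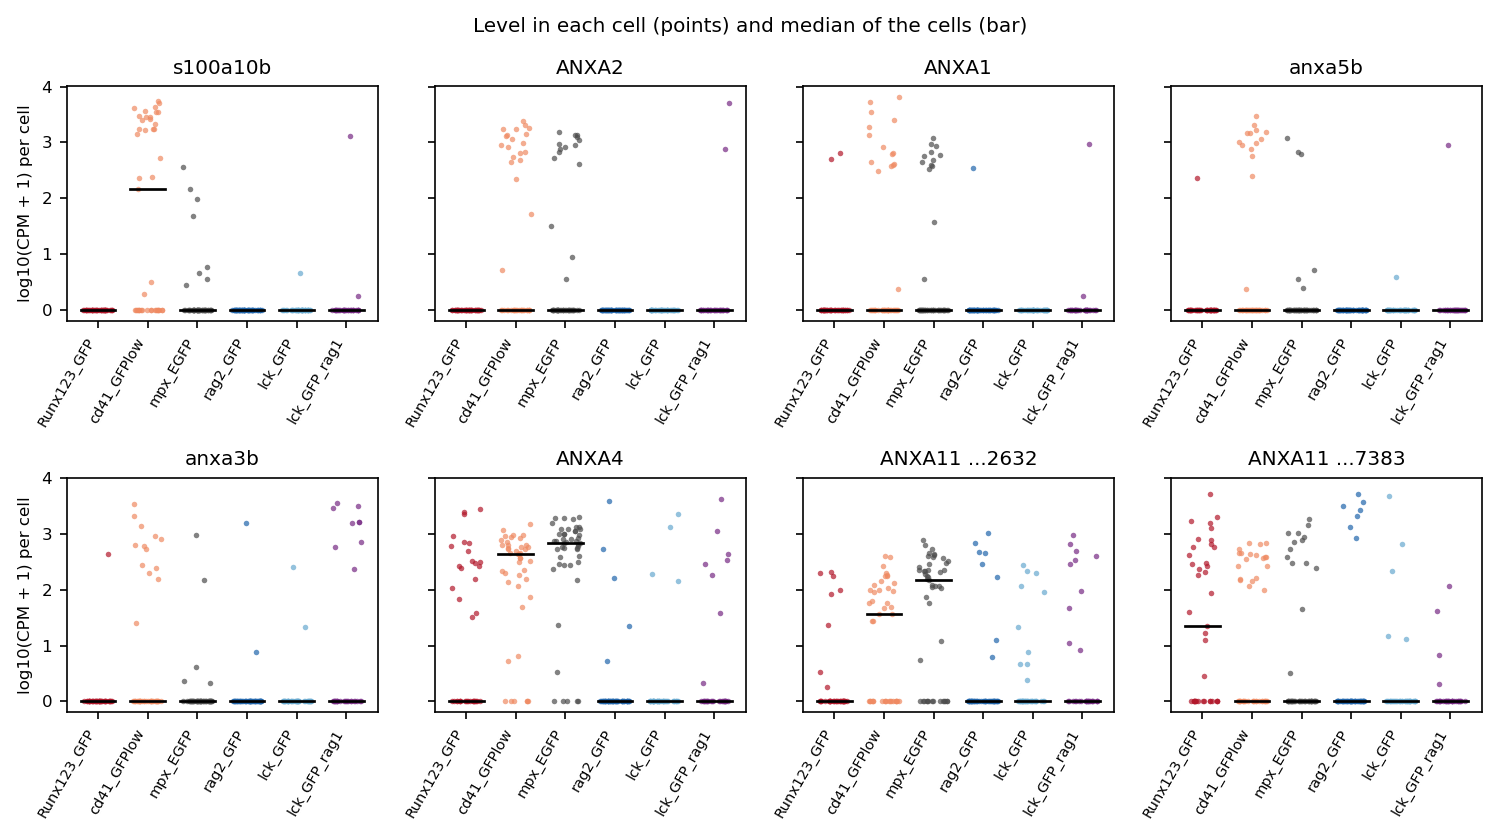
Level of the 8 members described by the naming rule in each cell, as log10(CPM + 1), by reporter line, with 1 point per cell spread sideways for visibility and a bar at the median of the line's cells. For s100a10b, ANXA2, ANXA1 and anxa5b the cd41_GFPlow cells fall into a group near 0 and a group around 1000 CPM, whereas ANXA4 is present in most cd41_GFPlow and mpx_EGFP cells.

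Within cd41_GFPlow 3 annexins were found among the cells with s100a10b. All 19 cells with ANXA2, all 14 with ANXA1 and all 13 with anxa5b lay among the 22 cells with s100a10b, and none lay among the 21 cells without it. For anxa3b the counts were 12 of 22 and 1 of 21, and for ANXA4 they were 19 of 22 and 16 of 21. Of the 5 genes s100a10b, ANXA2, ANXA1, anxa5b and anxa3b, 20 cells held none and 19 held 3 or more, with 4 cells between. The 5 did not all pair with each other, as anxa5b was present in 5 of the 13 cells with anxa3b and 8 of the 30 without it (Spearman's rho 0.041). These 5 were picked after the values were seen. Spearman's rho between s100a10b and ANXA2 over the 43 cells was 0.865, and 0.875 after thinning, a description over cells that share a plate and in which many values are 0.

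The s100a10b cells of cd41_GFPlow were sequenced about as deeply as the others. Their median was 1120100 reads and 2709 detected genes, against 1090380 reads and 2940 genes in the 21 cells without it. Monocyte and macrophage markers and neutrophil markers both had higher median sums in the cells with the gene. For the monocyte and macrophage list the medians were 1819 CPM with it and 229 CPM without it. The sum of that list does not separate macrophages from neutrophils. In mpx_EGFP it was 994 CPM with only 1 of the 15 genes at 10 CPM or more in the line. In the 22 cells with s100a10b that list summed to 533 to 25492 CPM per cell, with 14 of its 15 genes at 10 CPM in some cell and 15 cells at 2 or more of them. In the 21 cells without it the list summed to 0 to 1147 CPM, with 3 cells at 2 or more of its genes, and 9 of its 15 genes had no read. The 9 included marco, csf1ra and c1qc, but not c1qa or c1qb, and the rest were genes with the symbol MFAP4 or MPEG1. The erythroid list had no read of any of its 6 genes in the 22 cells and reached 5187 CPM in the others, with 5 cells at 2 or more of its genes. Neutrophil markers had a median sum of 340 CPM in the 22 cells and 7.91 CPM in the 21. Their sums ran from 1.66 to 52909 CPM and from 0 to 17205 CPM. MMP9 was at 0 in both, and 8 and 3 cells were at 2 or more. Stem and progenitor markers leaned the other way, with a median sum of 38.9 CPM and 603 CPM, and 3 of 22 and 9 of 21 cells at 2 or more. The part of these cell types in the levels of the members was not tested.

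The S100 relative icn, listed in RefSeq with the synonym s100a4a and next to s100w in GRCz12tu, falls outside the symbol rule and was added from the list of calcium sensors. Its level was 678 CPM in mpx_EGFP, 633 CPM in cd41_GFPlow, 607 CPM in lck_GFP_rag1, 37.3 CPM in Runx123_GFP, 28.9 CPM in lck_GFP and 0.0631 CPM in rag2_GFP. Unlike s100a10b, it was high in 3 lines and present in 28 of 47 mpx_EGFP cells and 13 of 31 lck_GFP_rag1 cells. In cd41_GFPlow it was present in all 22 cells with s100a10b and in 3 of the 21 without. In mpx_EGFP it was present in all 4 cells with s100a10b and in 24 of the 43 without.

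**Figure D4:**
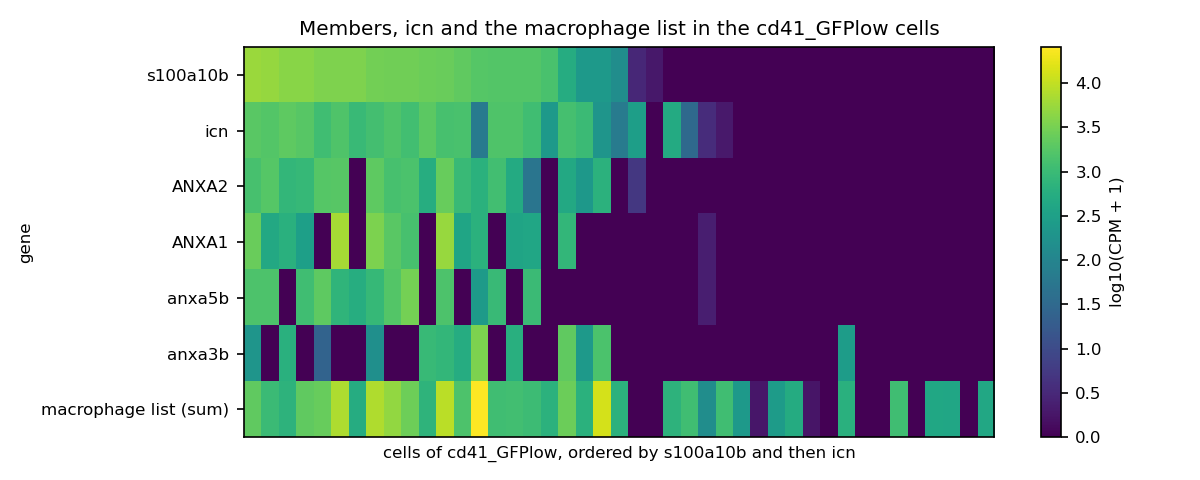
The 43 cd41_GFPlow cells (columns, ordered by s100a10b and then icn) with the log10(CPM + 1) of s100a10b, icn, ANXA2, ANXA1, anxa5b and anxa3b, and of the summed macrophage list in the bottom row. The bright block at the left holds the 22 cells with s100a10b at 10 CPM or more, in which ANXA2 was present in 19, ANXA1 in 14 and anxa5b in 13.

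In the neutrophil line mpx_EGFP ANXA1 and ANXA2 showed no clear relation. ANXA1 was present in 12 cells and ANXA2 in 13, and both were present in 2 of the 47 cells, with Spearman's rho at -0.139. With counts this small, a tendency of the genes to keep apart cannot be read from them. In cd41_GFPlow both were present in 14 of 43 cells, with rho at 0.764, and no cell held ANXA1 alone. The difference between the lines in this pairing was not tested, since each line is 1 sample. The direct comparison of cd41_GFPlow with mpx_EGFP, on different plates, had 11 members at 10 CPM in either line. Of these, 6 were at least 4-fold higher in cd41_GFPlow (s100a10b, s100w, s100v2, ANXA1, anxa5b and anxa3b), where 27.6% of 9138 genes were, and 1, S100Z, was lower, where 9.74% were.

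**Figure D5:**
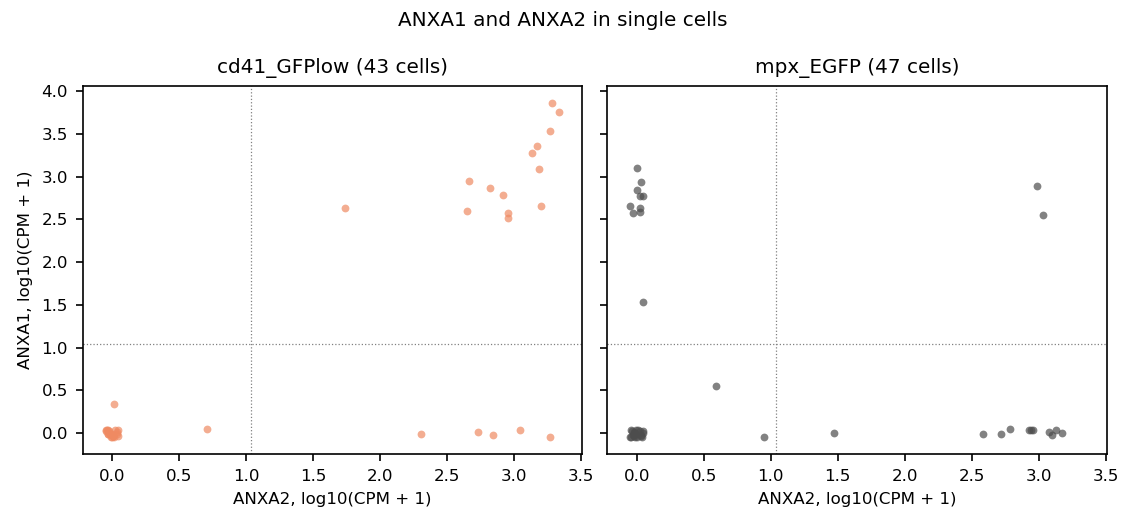
ANXA1 against ANXA2 in each cell, both as log10(CPM + 1), for cd41_GFPlow (left, 43 cells) and mpx_EGFP (right, 47 cells), with a small random shift to separate points and dotted lines at 10 CPM. The upper right field holds 14 cells of cd41_GFPlow and 2 of mpx_EGFP.

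In lck_GFP_rag1 most of the reads of 4 members came from 1 cell. That cell had 2969770 reads, the most of any cell, and held 99.96% of the line's ANXA1 reads, 100% of its anxa5b reads, 99.97% of its s100a10b reads and 83.1% of its ANXA2 reads. It had 13 of the 15 macrophage markers at 10 CPM or more, with marco at 2905 CPM and c1qc at 1536 CPM, and no read of the natural killer gene nkl.2 or of lck. A second cell of that line with at least 2 C1q genes held the rest of the ANXA2 reads. Without both cells, an alternative chosen after the data were seen, ANXA2 and anxa5b fell to 0 and ANXA1 and s100a10b to 0.0252 CPM each. anxa3b remained at 459 CPM in 7 cells and ANXA4 at 105 CPM. The number of members called lower in the line rose from 4 to 8. With the cells kept, 49.7% of all genes were called lower. The share without them is not given here, so the rise is not read as a result about the members.

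The lymphoid reporters rag2_GFP and lck_GFP, both on plate 2, could be compared without a change of plate. Only 6 members reached 10 CPM in either. ANXA6, from 1 cell, was higher in lck_GFP, where 23.5% of 8829 genes were, and ANXA1, from 1 rag2_GFP cell, was lower, where 37.6% were. ANXA4 stood at 208 CPM in lck_GFP and 103 CPM in rag2_GFP with 4 cells each, of 38 and 48, and 1 cell held 68.3% and 82.6% of the reads.

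Known partners of the families had 0 to 3 higher calls in each line, given here beside the shares of all genes. Of 15 measured partner genes 1 was higher and 1 lower in cd41_GFPlow, where 6.43% and 20.9% of all genes were. In Runx123_GFP 3 were higher and 6 lower, against 11.3% and 25.3%, and in mpx_EGFP 3 and 7, against 6.03% and 39.2%. In rag2_GFP 1 was higher and 8 lower, against 15.9% and 39.2%, in lck_GFP 0 and 9, against 8.64% and 47.2%, and in lck_GFP_rag1 2 and 7, against 8.59% and 49.7%. The scaffold gene ahnak, whose mammalian protein binds S100A10 and annexin A2, was highest in Runx123_GFP, where neither s100a10b nor ANXA2 had a read. The member s100a10a stood at 2.32 CPM in that line, from 1 cell, and anxa2b was not analysed here. The level of ahnak was 655 CPM in Runx123_GFP (19 of 39 cells), 266 CPM in cd41_GFPlow (22 of 43 cells), 23.3 CPM in lck_GFP_rag1, 4.81 CPM in mpx_EGFP, 0.0946 CPM in rag2_GFP and 0 in lck_GFP. The membrane repair genes DYSF and MYOF were split between lines, with DYSF at 13.2 CPM in Runx123_GFP alone and MYOF at 24.8 CPM in cd41_GFPlow and 23.2 CPM, from 1 cell, in lck_GFP_rag1. The formyl peptide receptor gene fpr1 stood at 457 CPM in lck_GFP_rag1, from 4 cells, and at 34.1 CPM in cd41_GFPlow, from 1 cell. In mpx_EGFP the higher partners were a MYH9 gene (ENSDARG00000063295), a non-muscle myosin heavy chain bound by S100A4 in mammals, at 500.2 CPM in 39 of 47 cells, and both PLA2G4A genes, which encode cytosolic phospholipase A2, at 53.7 and 34.5 CPM.

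A list of other calcium-binding genes, whose proteins are not all cytosolic, had 25 genes measured. Of these 25, 6 were higher in lck_GFP_rag1 and 4 lower, where 8.59% and 49.7% of all genes were. No gene of the list was higher in cd41_GFPlow, mpx_EGFP, Runx123_GFP or lck_GFP, where 6.43%, 6.03%, 11.3% and 8.64% of all genes were. In those lines 3, 5, 2 and 12 were lower, against 20.9%, 39.2%, 25.3% and 47.2%. In rag2_GFP 1 was higher, CALR at 265 CPM, and 7 were lower, against 15.9% and 39.2%. The 6 genes in lck_GFP_rag1 included the calmodulin genes calm1a at 256 CPM, calm1b at 704 CPM and calm3a at 357 CPM. A STIM1 gene, which senses calcium in the endoplasmic reticulum, stood at 909 CPM in 12 of 31 cells. The others were another STIM1 gene at 81.3 CPM, in 2 cells, and LPCAT1 at 133 CPM, in 3 cells. For these, 1 cell held 66.9% and 61.1% of the reads.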

How the data were processed

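The deposited table gives whole-number counts of reads per Ensembl gene for 246 cells, per the file headers. Per the submitters' processing notes, the tools were STAR, Picard and featureCounts and the build GRCz10; neither versions nor the order of steps are given in the sources used here. Molecular identifiers are not mentioned in the labels, so amplified reads are not independent molecules. No doublet caller was run and no cell was left out. Counts were summed per line and scaled to CPM, with exact Poisson intervals for levels, exact Clopper-Pearson intervals for shares and exact conditional intervals for folds, all at 95%. Ratios are log2((CPM + 1)/(CPM + 1)), called at 2 or beyond among genes at 10 CPM in a line compared. Reads per cell ran from 47630 to 2969770. Members described in full had at least 50 CPM and 10% of cells at 10 CPM or more in a line. Members, marker lists and partner lists were chosen with earlier results of these data known. Where a list entry had no exact symbol in the table, it was matched without its last letter or number, a choice made after the table was seen. Alternatives were another scaling (size factors), per-cell means, thinning, filters, a pseudocount of 5 CPM, leaving out the reads of a gene in its top cell (with the total of the line kept) and leaving out cells under 1000 genes. Python 3.11.15, numpy 2.4.6, pandas 2.3.3 and scipy 1.17.1 were used. Sequences, gene lengths and coordinates were not used here, so levels are not compared between genes.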

Additional observations from a re-analysis of the deposited data

How the results depend on the processing

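Of the 144 recomputed counts of members called, 115 stayed within 1.5 times. The recomputed counts below are given without the share of all genes called under each alternative, so they describe the members only. For the 8 fully described members the log2 ratio to the mean of the other lines was recomputed in the line where each gene was highest. Of these 72 ratios, 49 moved beyond the counting interval and 23 did not. The 23 include the ratios under a changed filter, which leaves a ratio as it is, so these could not move. None changed sign, which says little, since the highest line was chosen for each gene. The ratios ran from 5.47 to 9.24 for s100a10b, from 3.95 to 5.98 for anxa5b, from 3.24 to 4.25 for ANXA1 and from 2.39 to 3.14 for ANXA2, all in cd41_GFPlow. For anxa3b in lck_GFP_rag1 they ran from 2.74 to 3.64. With a filter of 50 CPM, the count of higher members became 0 in Runx123_GFP, mpx_EGFP, lck_GFP and lck_GFP against rag2_GFP. In cd41_GFPlow s100w and s100v2, at 19.96 and 20.8 CPM, fell below that filter and left the higher members there and against mpx_EGFP. The count of lower members became 0 in cd41_GFPlow, in cd41_GFPlow against mpx_EGFP and in lck_GFP against rag2_GFP, 2 in mpx_EGFP, 5 in rag2_GFP and 1 in lck_GFP_rag1, since fewer genes were measured. With a pseudocount of 5 CPM, higher members became 0 in lck_GFP and against rag2_GFP, and lower ones 0 in cd41_GFPlow and against mpx_EGFP, 2 in mpx_EGFP, 5 in rag2_GFP and 1 in lck_GFP_rag1. Without the top cell of each gene, lower members became 2 in cd41_GFPlow, 7 in lck_GFP_rag1 and 2 in lck_GFP against rag2_GFP, and higher ones 2 in mpx_EGFP and 0 in lck_GFP and against rag2_GFP. Size factors gave 2 higher members in mpx_EGFP, with ANXA4 reaching a log2 ratio of 2.10 there. The log2 ratios of these factors to the line totals ran from -0.16 in mpx_EGFP to 0.39 in Runx123_GFP. Levels, which are divided by the factors, moved by the same amounts with the opposite sign. Thinning gave 7 lower members in lck_GFP_rag1 and 2 in lck_GFP against rag2_GFP. Cells with at least 1000 genes gave 0 higher members in lck_GFP and 2 against rag2_GFP. Leaving out the cells with C1q genes gave 8 lower members in lck_GFP_rag1. Apart from these constructions the cause was not tested. No paired analysis was possible because each cell is its own sample and the labels give no replicate numbers shared between lines. Each line is 1 sample, and in lines with 31 to 48 cells a gene at 10 CPM in no cell could still reach it in up to 9.68 to 6.25% of cells by a limit of 3 cells, or 11.2 to 7.40% by the exact two-sided interval.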
